A study of Mus musculus with 26 samples.

Results

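The ATP-binding cassette (ABC) transporter genes were examined in mouse intestinal epithelium, taken from the proximal small bowel, after deletion of BMP pathway genes. Members were all rows whose symbol, in capitals, starts with ABCA to ABCG followed by a number, without ABCA1, ABCG5 and ABCG8. The rule found 43 of 20409 gene symbols in the 4 expression tables, 32 of them in every table. Of these, 27 reached an FPKM of 1 (fragments per kilobase of exon, scaled to the mapped fragments of the library) in enough libraries to be tested in at least 1 table, 21 were tested in all 4, and 16 were tested in none.

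ABC proteins use ATP to move substrates across membranes. In the small intestine, apical members such as P-glycoprotein (Abcb1a, and in the mouse also Abcb1b), the multidrug resistance protein Abcc2 and the breast cancer resistance protein Abcg2 return drugs and conjugates to the lumen, while basolateral members such as Abcc3 pass conjugates toward the blood. Other members work inside the cell, in mitochondria, lysosomes and peroxisomes, and the E and F subfamilies lack membrane domains and act in translation.

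The study asked how BMP signalling through SMAD proteins, and the transcription factor TBX3, shape gene expression along the villus. All mutants carried Villin-CreERT2, which restricts tamoxifen-inducible recombination to the intestinal epithelium, and received tamoxifen on 4 consecutive days. Libraries were labelled SMAD1/5 iDKO (3 at day 6 and 2 at day 30, counted from the first injection), SMAD1/4/5 iTKO (3 at day 30), SMAD4 iKO (2 at day 6) and TBX3 iKO (3 at day 30). Controls came from littermates matched for sex, either without Cre and given tamoxifen or with Cre and given oil. The 3 controls of the day 6 SMAD1/5 table and controls 1 and 2 of the day 30 SMAD table received tamoxifen. Controls 3 to 5 of the day 30 SMAD table (SMAD1/4/5 line), the 2 of the SMAD4 table and the 3 of the TBX3 table received oil. Tamoxifen and deletion therefore cannot be told apart in the SMAD4, TBX3 and iTKO comparisons with oil controls. Cre and deletion cannot be told apart where controls lacked Cre. The iDKO libraries came from the SMAD1/5 line and the iTKO libraries from the SMAD1/4/5 line. Mouse line and added SMAD4 loss therefore cannot be told apart between iTKO and iDKO. Strain and age are not given in the sources used here, and the labels do not say that each library is a separate animal, so p-values measure the spread between these libraries.

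Sequencing depth, read approximately from the steps of the FPKM values, was 21.1 to 30.5 M (mega) fragments per library at day 6 (SMAD1/5), 13 to 18 for the SMAD libraries of day 30 and 10.1 to 18.4 for TBX3. For the SMAD4 libraries the depth could not be read. Smad4 ranged from 128 to 163 FPKM in day 30 controls and from 32.1 to 46.7 in iTKO, and in the SMAD4 libraries it fell from 22.9 to 24.9 in controls to 5.11 to 7.19 in iKO. Tbx3 ranged from 45.5 to 56.3 in its controls and from 7.53 to 22.9 in TBX3 iKO. Smad1 levels overlapped between groups and Smad5 was higher in every iDKO and iTKO library than in its controls (10.4 to 13.1 against 5.69 to 6.33 FPKM at day 6), so gene-level FPKM does not check those deletions. The 7 enterocyte markers summed to between 14277 and 28095 FPKM in every library, and the endothelial markers in the tables to at most 1.26. Paneth cell markers were low in both number 2 libraries at day 6 (59.4 FPKM in control 2 and 85.9 in iDKO 2, while the highest control had 7209 and the highest iDKO library 3551). They also differed within the SMAD4 groups, from 1036 to 13029 FPKM in controls and from 1266 to 5811 in iKO, with the number 2 library lower in each. In the TBX3 table Paneth cell sums were low in every library (70.6 to 194 FPKM in controls, 103 to 172 in iKO). Markers of crypt stem and cycling cells summed there to 32.4 to 106 FPKM in controls and 36.3 to 55.3 in iKO. At day 6 the crypt sums were 103 FPKM in control 2 and 153 in iDKO 2, with highest sums of 350 in controls and 379 in iDKO. In TBX3 iKO, library 2 had the highest T cell sum (175 FPKM, lowest 28.3) and goblet cell sum (2832, lowest 174.5). The 2 iDKO libraries at day 30 differed in stromal and muscle markers (7.45 FPKM in library 1, 0.577 in library 2).

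The stretches of 250 bases before the transcription start are printed for Abcc2 and Abcb1b, which passed the test in 4 comparisons each, and for Abcb10, which was lower in every comparison of a SMAD1/5 or SMAD1/4/5 mutant with its controls. They are RefSeq sequences on GRCm38.p6, written from 5′ to 3′ in the direction of the gene, at chr19:43782058-43782307 (plus strand) for Abcc2, chr5:8797897-8798146 (plus strand) for Abcb1b and chr8:123983123-123983372 (minus strand) for Abcb10. Capitals mark the match to AGGTCA, the hexamer bound by many nuclear receptors.
Abcc2: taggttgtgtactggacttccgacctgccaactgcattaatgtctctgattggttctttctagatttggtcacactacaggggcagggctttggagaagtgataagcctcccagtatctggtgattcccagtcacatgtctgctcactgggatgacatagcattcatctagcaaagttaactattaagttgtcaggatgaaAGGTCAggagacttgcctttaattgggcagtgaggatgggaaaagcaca
Abcb1b: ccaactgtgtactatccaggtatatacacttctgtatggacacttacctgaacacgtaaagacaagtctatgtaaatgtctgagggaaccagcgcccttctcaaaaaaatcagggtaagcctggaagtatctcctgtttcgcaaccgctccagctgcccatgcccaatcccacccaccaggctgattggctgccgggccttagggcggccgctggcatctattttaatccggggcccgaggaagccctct
Abcb10: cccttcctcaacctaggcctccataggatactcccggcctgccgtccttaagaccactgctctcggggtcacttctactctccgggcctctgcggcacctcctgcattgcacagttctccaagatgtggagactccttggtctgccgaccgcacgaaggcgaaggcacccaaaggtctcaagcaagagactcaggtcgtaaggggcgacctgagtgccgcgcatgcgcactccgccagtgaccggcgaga
Both strands were searched for that hexamer, for GGCGCC (a BMP SMAD element), GTCTAGAC (the SMAD palindrome), AGGTGTGA (a T-box element) and CAAAGTCCA (an HNF4 element). The hexamer stood 49 to 44 bases before the start of Abcc2, and no other match was found in the 3 sequences. Of 32851 promoters of the same length, 14% held AGGTCA, 9.59% GGCGCC, 0.167% GTCTAGAC, 1.12% AGGTGTGA and 0.384% CAAAGTCCA. A match is a description of the letters and not a binding site.

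In control epithelium, Abcc2 had the highest mean FPKM of the members in each of the 4 tables. Its mean was 229 ± 6.01 FPKM (SD, n = 3) in the day 6 SMAD1/5 table, 300.4 ± 39.5 (n = 5) in the day 30 SMAD table, 115 ± 7.68 (n = 2) in the SMAD4 table and 154 ± 13.9 (n = 3) in the TBX3 table. FPKM is scaled for length, so genes can be set side by side within a table, but the tables were normalised separately. Abcb1a came next at day 6, with 136 ± 29.2 FPKM, above Abcd3 at 71.7 ± 7.05. In the day 30 SMAD table the order was Abcd3 (200.5 ± 15.4 FPKM), Abcg2 (150.5 ± 11.9), Abcf1 (140.4 ± 7.35) and Abcb1a (123 ± 32.6), and the last 3 lay within 1 SD of Abcb1a from each other. Abcc2 and Abcd3 (114 ± 3.64 FPKM) did not differ beyond their spread in SMAD4 controls, nor did Abcb1a (73.6 ± 13.5) and Abcd3 (71.9 ± 4.78) in TBX3 controls. Abcb1b, Abcc4, Abcc8 and Abca14 were near or below 1 FPKM in the controls of every table.

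**Figure D1:**
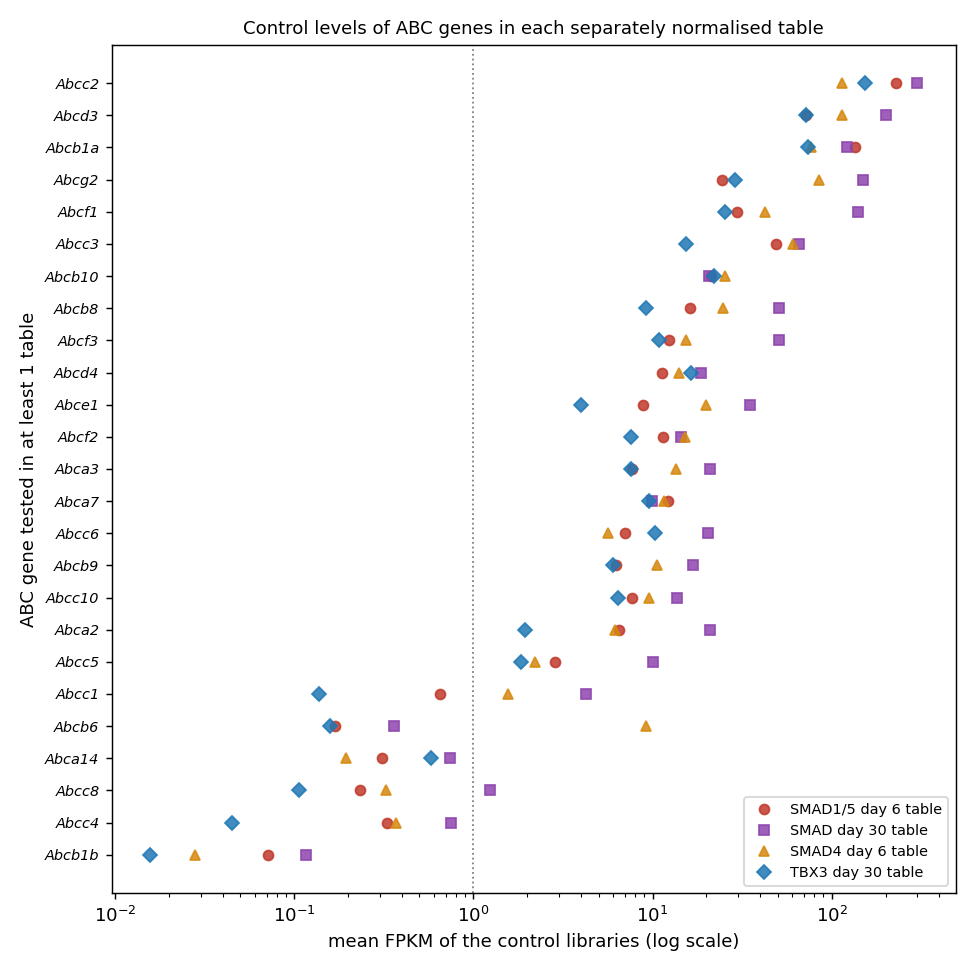
Mean FPKM of control libraries (log axis) for 25 of the 27 ABC genes tested in at least 1 table, with 1 symbol per table and the filter at 1 FPKM as a dotted line. Abcc2 is the rightmost point of every table (229, 300.4, 115 and 154 FPKM), and Abcb1b lies leftmost.

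The bile and lipid exporters best known from liver were near 0. Abcb4 (the phosphatidylcholine floppase) stayed at or below 0.079 FPKM and Abcb11 (the bile salt export pump) at or below 0.278 in the 3 tables that list them. Abcg1, a sterol exporter, stayed at or below 1.32 FPKM. No value above 1.32 FPKM was found among the 16 members tested in no table, which were Abca4, Abca5, Abca6, Abca8a, Abca8b, Abca9, Abca12, Abca13, Abcb4, Abcb11, Abcc9, Abcc12, Abcd2, Abcg1, Abcg3 and Abcg4. Abcb6, a porphyrin transporter, read 7.93 to 11.3 FPKM in SMAD4 libraries but only 0.034 to 0.611 elsewhere. In the GENCODE vM21 annotation 55.2% of its exon bases lie under exons of Gm29253 on the same strand, so its level is uncertain, and the cause of the gap was not tested.

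Several ABC genes differed between SMAD1/5 iDKO and control epithelium at day 6. Abcc2, Abcg2, Abcb10 and Abca2 were among those that fell, and Abcb1b, Abca3, Abcf2 and Abcf1 rose. By limma with a mean-variance trend on log2(FPKM + 0.5) and an adjusted p under 0.05 over all genes tested, 4 of 22 members were higher and 5 lower, against 15.5% of all genes higher and 8.26% lower (23.8% together). Abcb1b was tested only because of its level in iDKO libraries, so its call is a description. Without it 3 of 21 members were higher and 5 lower. The median difference, iDKO minus control on the log2 scale, was -0.17 over the members tested and 0.18 over all genes tested. After centring each library on its median the members split into 1 higher and 6 lower, and after quantile normalization into 2 higher and 6 lower, with Abca3 and Abcf1 no longer called in either and Abcf2 not called after centring. With both number 2 libraries left out, an alternative chosen after seeing the data, 1 member was higher and 4 lower. Fewer cells of a type and less RNA per cell cannot be told apart in bulk libraries.

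At day 30, iDKO epithelium had higher Abcb1b and Abca3, and Abcb10, Abcc2 and Abcc5 were among the members that were lower. In all there were 2 higher and 4 lower of 26 members tested, against 9.43% of all genes higher and 9.31% lower. In iTKO epithelium Abcb1b and Abca3 were higher and Abcc5, Abcb10, Abcc2 and Abcd4 lower, again 2 and 4 of 26, against 9.13% and 8.95% of all genes. The share called either way was 23.1% of members in each, or 20% without Abcb1b, near the 18.7% and 18.1% of all genes, and both comparisons share the same 5 controls. Only Abcb1b passed the test between iTKO and iDKO in the direct contrast. An unadjusted limma p under 0.05 was found for 5 members there, and the share of all genes at that threshold was not counted. The count was 1 lower and 0 higher of 26 members, against 0.544% and 0.218% of all genes (0.762% together). Abcb1b reached 1 FPKM in both iDKO libraries and in iTKO 1 alone, so its call is a description. Without it the count was 0 and 0 of 25.

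After SMAD4 deletion alone no member passed the test at day 6 (0 of 24 by limma, against 1.28% of all genes higher and 2.14% lower, 3.42% together). With 2 libraries per group, this does not show that the levels were unchanged. On simulated data the test recovered 51% of 2-fold changes in this comparison. An unadjusted limma p under 0.05 was found for 10 members. The share of all genes at that unadjusted threshold was not counted, so this number has no background beside it. Fits with a stricter filter, median centring or a robust prior each called 1 member lower, Abcb10. After TBX3 deletion Abca2 and Abcc2 were lower at day 30 and no member was higher. These were 2 and 0 of 21, against 2.08% and 1.34% of all genes (3.42% together). Abca2 passed the filter on low values through the controls alone, so its part in this count is a description. Median centring gave 1 higher (Abcc3) and 1 lower (Abca2). Quantile normalization lost both calls and gave Abcc3 higher and Abcc6 lower instead. Neither TBX3 call held when any 1 of the 6 libraries was left out, iKO 2 included (adjusted p = 0.0598 for Abcc2 and 0.0549 for Abca2), where adjusted p ranged up to 0.16 for Abcc2 and 0.152 for Abca2.

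**Figure D2:**
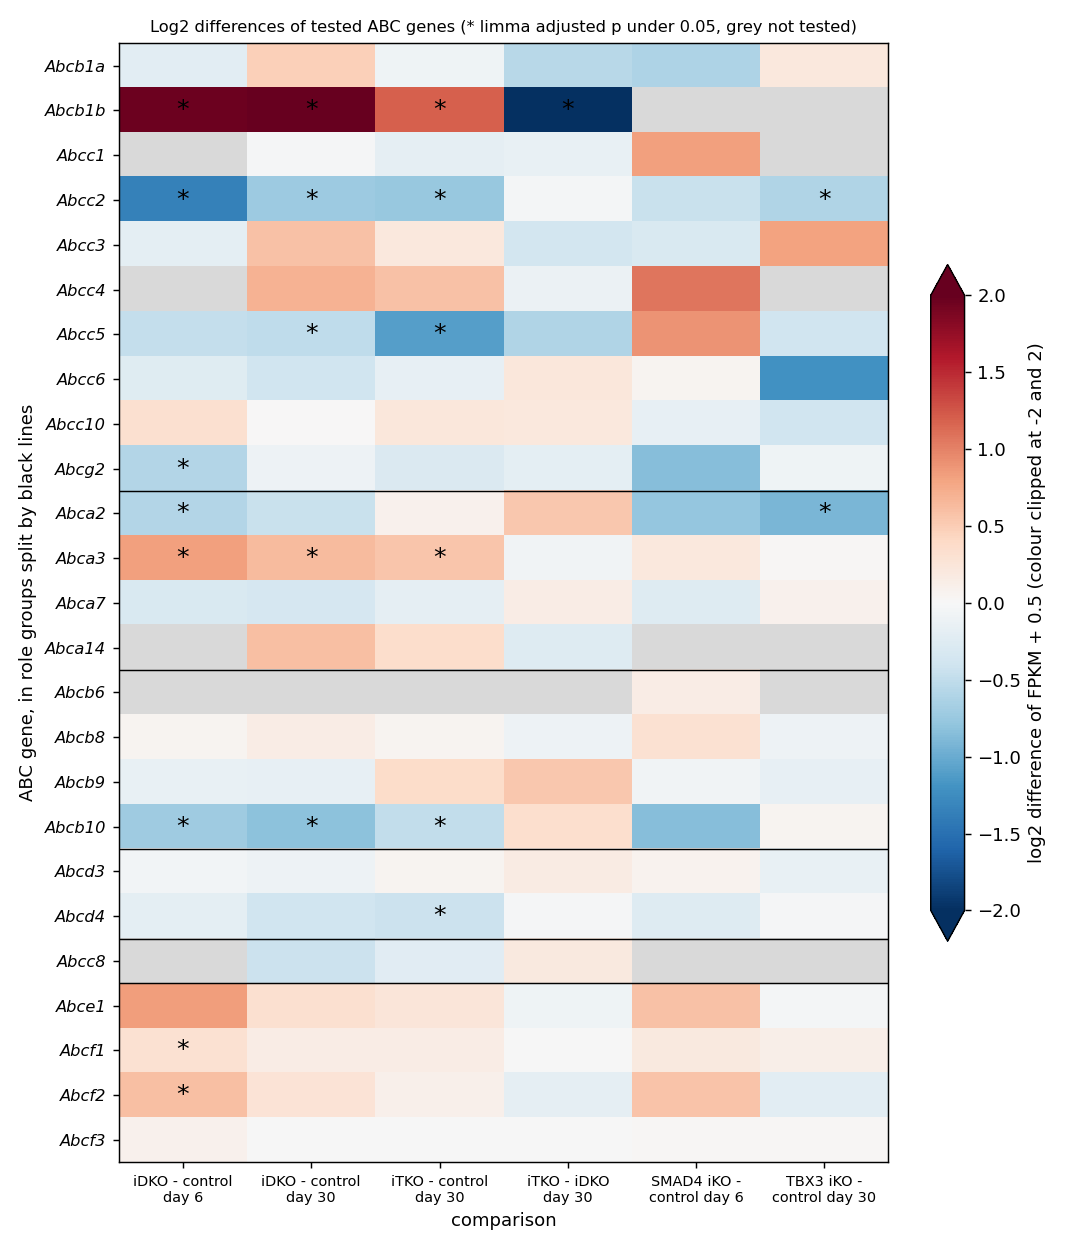
Log2 differences (FPKM + 0.5, mutant minus reference, colour clipped at -2 and 2) of 25 of the 27 ABC genes tested, in rows by role group, for 6 comparisons in columns. Stars mark a limma adjusted p under 0.05 and grey cells were not tested; Abcb1b has the deepest red and Abcc2 is blue in 5 columns, starred in 4.

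Among the apical exporters, Abcc2, which secretes glucuronide and glutathione conjugates, was the member with the highest level that fell. At day 6 it read 228, 236 and 224 FPKM in controls and 111, 97.8 and 65.0 in iDKO. The lowest control was thus above the highest mutant library, and limma gave a change of -1.36 ± 0.20 (SE) on the log2 scale (adjusted p = 0.00523). In the day 30 table controls read 269, 291, 369, 282 and 291 FPKM, iDKO 151 and 215, and iTKO 236, 149 and 155. No mutant library reached the lowest control, and the limma changes were -0.73 ± 0.20 (adjusted p = 0.0273) in iDKO and -0.76 ± 0.17 (adjusted p = 0.0121) in iTKO. Against the 2 controls of its own line the iDKO change was -0.63 (adjusted p = 0.134), and without iDKO 1 it was -0.47 (0.294). Leaving out iTKO 2 or iTKO 3 gave an adjusted p of 0.0553 or 0.0634 for iTKO. The direct contrast of the 2 genotypes was not called (-0.04, 95% interval -0.51 to 0.44).

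In SMAD4 libraries Abcc2 read 109 and 120 FPKM in controls and 87.8 and 80.8 in iKO, a change of -0.44 ± 0.13 that limma did not call (adjusted p = 0.149). In the TBX3 table it read 151, 169 and 142 FPKM in controls and 110, 90.9 and 104 in iKO. These groups did not overlap either, and the change was -0.60 ± 0.12 (limma adjusted p = 0.0431).

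**Figure D3:**
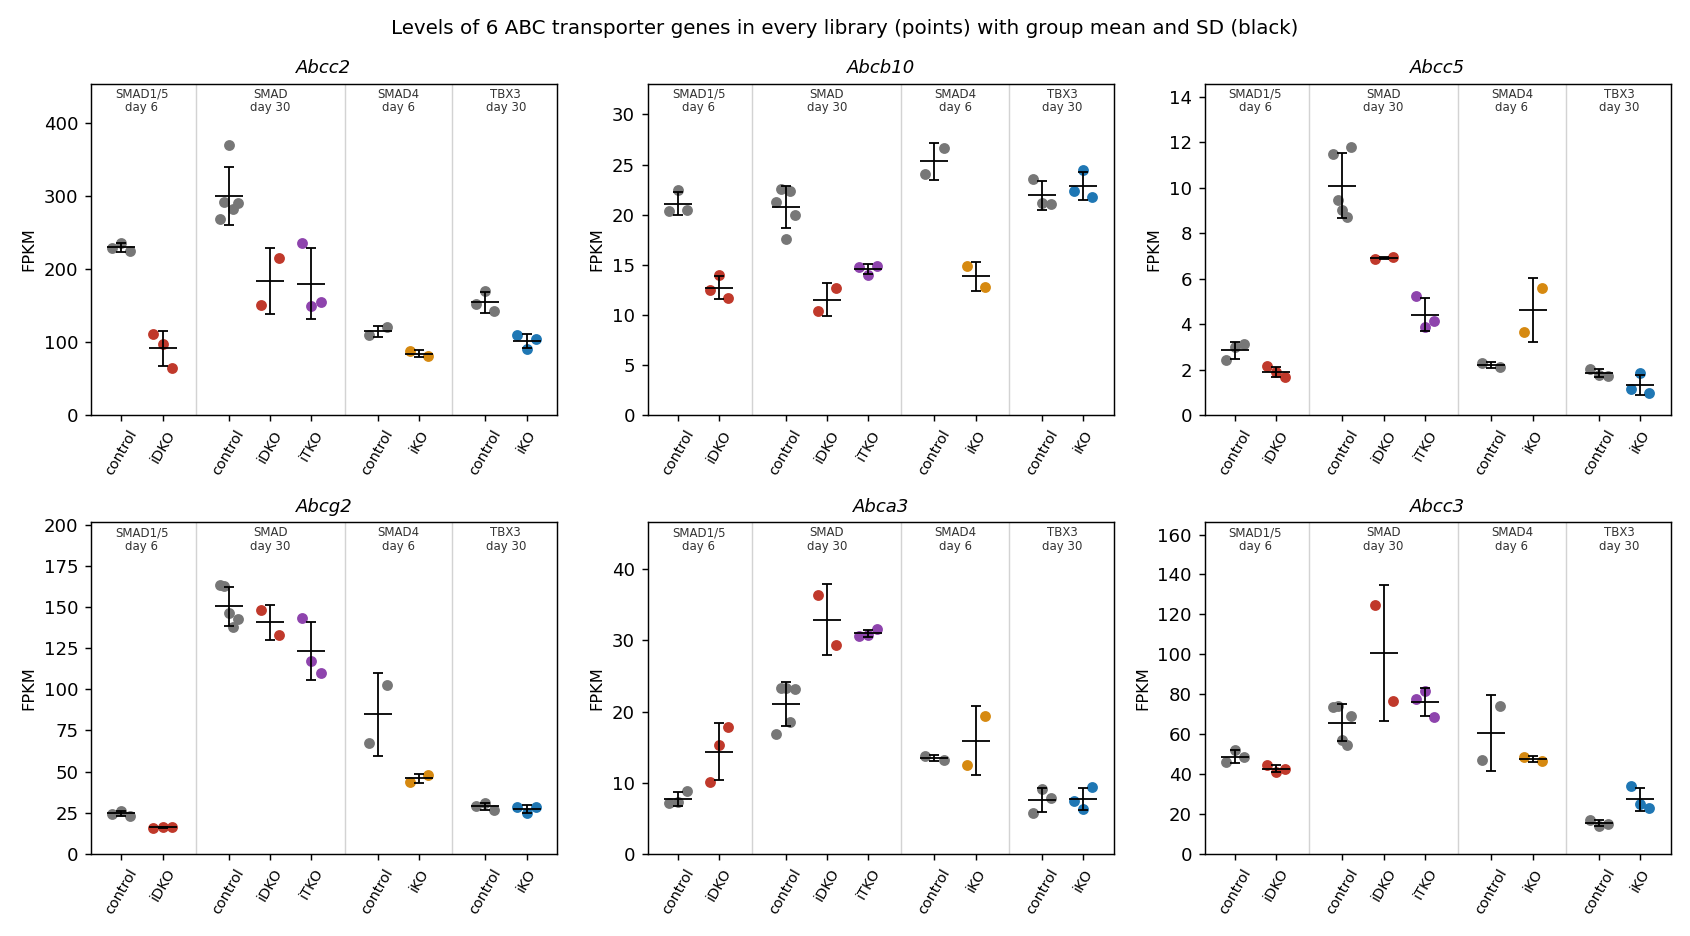
FPKM of Abcc2, Abcb10, Abcc5, Abcg2, Abca3 and Abcc3 in all 26 libraries (points), with group mean and SD (black), panels divided by table. For Abcc2 the day 6 iDKO points lie between 65.0 and 111 FPKM, below control points of 224 to 236; levels are not comparable across the dividing lines.

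Abcb1a, the main P-glycoprotein gene of mouse intestine, passed the test in no comparison. At day 6 controls read 143, 104 and 161 FPKM and iDKO 135, 101 and 115. In the day 30 table controls read 116, 119, 169.5, 130 and 78.7 FPKM, iDKO 156 and 176, and iTKO 143, 110 and 90.8. Each mutant group overlapped its controls in both tables, while both iDKO libraries lay above every iTKO library at day 30. Against controls the log2 changes were -0.20 (95% interval -0.65 to 0.24) for iDKO at day 6, 0.48 (-0.07 to 1.02) for iDKO at day 30 and -0.08 (-0.56 to 0.39) for iTKO. The direct change of iTKO minus iDKO lay between -0.73 and -0.41 over 15 alternative settings. SMAD4 controls had 81.5 and 71.7 FPKM and SMAD4 iKO 65.1 and 38.2, without overlap. TBX3 controls had levels of 71.4, 88.0 and 61.2 FPKM and TBX3 iKO of 83.7, 68.4 and 105, with overlap. Those changes were -0.61 (-1.30 to 0.08) and 0.21 (-0.25 to 0.67). These intervals include 0, which does not show that the levels were equal.

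Abcb1b, the second P-glycoprotein gene and the neighbour of Abcb1a on mouse chromosome 5, moved from near 0 in controls to measurable levels in SMAD1/5 mutants. At day 6 controls read 0.101, 0.0406 and 0.0710 FPKM, about 17, 7 and 16 fragments, and iDKO read 1.04, 2.39 and 1.99, with about 581 fragments in library 2. At day 30 the 5 controls lay between 0.0432 and 0.190 FPKM (5 to 25 fragments), iDKO read 7.98 and 4.72 (about 1148 and 592 fragments), and iTKO 1.5, 0.448 and 0.949 (172, 55 and 121). Every mutant library lay above every control, and the 3 groups of the day 30 table did not overlap each other. The ratio of mean FPKM was 25.5 at day 6, 54.4 in iDKO at day 30 and 8.27 in iTKO.

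On the log2(FPKM + 0.5) scale, which understates changes of such low values, limma gave 1.97 ± 0.28 for Abcb1b in iDKO at day 6 (adjusted p = 0.00494), 3.44 ± 0.31 at day 30 (6.56e-05) and 1.19 ± 0.27 in iTKO (0.012). The iTKO level was below the iDKO level by -2.25 ± 0.34 (adjusted p = 0.0154). That contrast lost its call with a pseudocount of 0.1 (adjusted p = 0.0665), on the 2 groups alone (0.13), without iDKO 1 (0.22) and without iTKO 3 (0.0674). The iTKO call was lost without iTKO 1 (0.0564) or iTKO 3 (0.0515), while the iDKO call at day 30 held without iDKO 1 (3.09, adjusted p = 0.00228). Because Abcb1b passed the filter on low values only through mutant libraries, it had to differ from controls in iDKO at both times. Of the iTKO libraries only iTKO 1 reached 1 FPKM, so at day 30 the gene entered the test mainly through iDKO. The contrast of iTKO with iDKO is therefore drawn from a gene that was admitted through the group where it is high. Without Abcb1b, a count added after seeing the data, there were 3 higher and 5 lower of 21 members at day 6. At day 30 there were 1 and 4 of 25 in iDKO and again in iTKO, and 0 and 0 of 25 between iTKO and iDKO. All calls of Abcb1b are given as a description. It was not tested in the other tables, where it read 0.0292 and 0.0269 FPKM in SMAD4 controls, 0.112 and 0.208 in SMAD4 iKO, and at most 0.0626 in the TBX3 table.

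**Figure D4:**
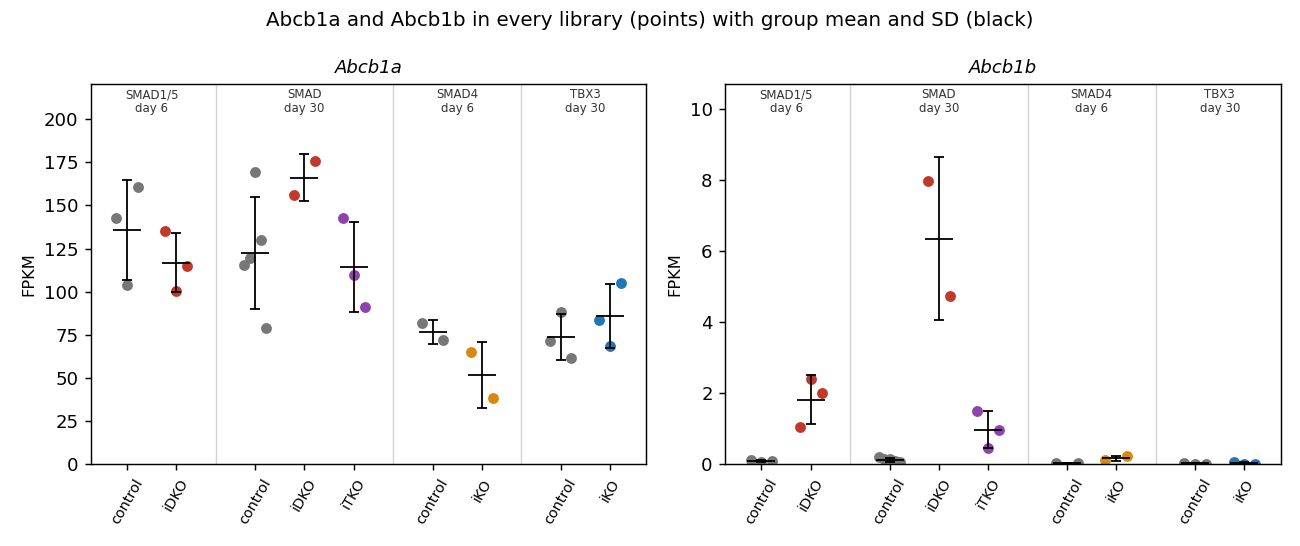
FPKM of Abcb1a (left) and Abcb1b (right) in all 26 libraries (points), with group mean and SD (black). For Abcb1a the mutant points overlap their controls in the SMAD1/5, day 30 and TBX3 panels. Abcb1b reaches 4.72 and 7.98 FPKM in iDKO at day 30 and is at most 0.208 in controls, SMAD4 iKO and TBX3 iKO.

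The pair shares sequence, and how reads were split between them is not known. Of the windows of 150 bases in the Abcb1b transcript, 5.15% also occur in Abcb1a, and of windows of 50 bases 18%. Antisense gene models cover 1.8% of Abcb1b and 10.1% of Abcb1a exon bases, and no strand setting of the counting is known.

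Abcg2, the apical exporter of urate, sulphated conjugates and many drugs, was lower at day 6. Controls read 24.3, 26.1 and 23.2 FPKM and iDKO 16, 16.5 and 16.1, a narrow and separate range. The change was -0.59 ± 0.08 (limma adjusted p = 0.00514). At day 30 the means were 150.5 ± 11.9 FPKM (SD, n = 5) in controls, 140.6 ± 10.4 (n = 2) in iDKO and 123 ± 17.5 (n = 3) in iTKO, with overlapping groups and no call (log2 changes -0.10 in iDKO and -0.29 in iTKO, the latter with an adjusted p of 0.0731). SMAD4 controls read 67.1 and 103 FPKM and iKO 43.7 and 47.9, a change of -0.85 ± 0.23 that was not called (adjusted p = 0.129). The TBX3 groups overlapped, with means of 28.9 ± 2.06 FPKM in controls and 27.4 ± 2.27 in iKO.

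Abcc3, which carries glucuronides and bile acids to the blood side, passed the test nowhere in the main fit, but missed it narrowly in 2 comparisons. Some alternative fits called it in both. At day 30 controls read 73.8, 74.1, 57.2, 54.4 and 69.1 FPKM, iDKO 125 and 76.6 and iTKO 77.8, 81.8 and 68.4. The iDKO change was 0.58 ± 0.19 (limma adjusted p = 0.0517), and the 2 iDKO libraries differed by more than the whole control range. In the TBX3 table controls read 17.1, 13.8 and 15.2 FPKM and iKO 33.8, 25.2 and 23.1, without overlap, for a change of 0.80 ± 0.16 (adjusted p = 0.051). At day 6 the iDKO mean was 42.6 ± 1.76 FPKM against 48.8 ± 3.05 in controls (log2 change -0.19, adjusted p = 0.144). Abcc1 and Abcc4, basolateral exporters of glutathione conjugates and of cyclic nucleotides, were tested in 2 tables and called in none. Abcc4 passed the filter there only through mutant libraries, with 1.27 ± 0.16 FPKM in SMAD4 iKO against 0.369 ± 0.309 in controls.

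Abcc5, another exporter of cyclic nucleotides, was lowest in iTKO. Day 30 controls read 11.5, 9.46, 9.03, 8.73 and 11.8 FPKM, iDKO 6.89 and 6.94, and iTKO 5.24, 3.88 and 4.13. The 3 groups did not overlap, and limma gave -1.11 ± 0.13 in iTKO (adjusted p = 0.000436) and -0.51 ± 0.15 in iDKO (0.0424). The iTKO call held under every alternative fit. The iDKO call was lost in 8 of 18 settings, among them leaving out any of controls 1, 2 and 5 or either iDKO library. The direct contrast, -0.60 ± 0.17, was not called (adjusted p = 0.156). SMAD4 libraries had the other order, with 2.30 and 2.13 FPKM in controls and 3.64 and 5.61 in iKO (0.89 ± 0.25, adjusted p = 0.138). At day 6 iDKO read 1.91 ± 0.22 FPKM against 2.84 ± 0.38, with an adjusted p of 0.06 that fell below 0.05 after centring or quantile normalization.

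Abcc6, an efflux protein linked to ATP release, was not called by the main fit in any comparison. In the TBX3 table it was called with a filter at 5 FPKM, after quantile normalization or without iKO 2. Its groups did not overlap there, and the share of all genes without overlap was not counted. Controls read 11.2, 10.3 and 9.66 FPKM and TBX3 iKO 4.19, 6.40 and 2.67 (-1.21 ± 0.27, limma adjusted p = 0.0624). In the day 30 table its means were 20.5 ± 4.22 FPKM in controls, 16.7 ± 9.92 in iDKO and 18.5 ± 6.07 in iTKO. Abcc10, a further conjugate exporter, ranged in control means from 6.40 to 13.7 FPKM and was called in no comparison.

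Of the A subfamily, which moves phospholipids and sterols, Abca2, Abca3 and Abca7 were tested in every table. Abca3, the phospholipid transporter of lamellar bodies, was higher in iDKO and iTKO. At day 6 controls read 7.11, 7.27 and 8.79 FPKM and iDKO 10.1, 15.3 and 17.8. At day 30 controls read 16.8, 23.3, 23.3, 18.6 and 23.2 FPKM, iDKO 36.4 and 29.4, and iTKO 30.7, 30.8 and 31.6. All mutant libraries lay above all controls, with limma changes of 0.83 ± 0.21 at day 6 (adjusted p = 0.0322), 0.64 ± 0.14 in iDKO at day 30 (0.0112) and 0.56 ± 0.13 in iTKO (0.0111). The day 6 call was lost in 9 of 16 settings, and the iDKO call at day 30 without iDKO 1 (adjusted p = 0.15). An antisense gene model, D330041H03Rik, covers 9.8% of its exon bases. In the SMAD4 and TBX3 tables Abca3 overlapped between groups, with log2 changes of 0.20 (95% interval -0.39 to 0.80) and 0.03 (-0.44 to 0.50).

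Abca2, a lipid transporter of lysosomes and endosomes, was lower at day 6 (6.24, 6.31 and 7.01 FPKM in controls, 4.88, 4.18 and 3.49 in iDKO) by -0.59 ± 0.14 (limma adjusted p = 0.0234). That call was lost in 4 of 16 settings, without control 3, iDKO 2, iDKO 3 or both number 2 libraries (adjusted p from 0.0691 to 0.0793). In the TBX3 table it read 1.92, 2.02 and 1.85 FPKM in controls and 0.898, 0.820 and 0.663 in iKO, a change of -0.91 ± 0.17 (adjusted p = 0.0376). There it passed the filter through the controls alone, so it had to differ. At day 30 the groups overlapped (20.8 ± 1.14 FPKM in controls, 15.6 ± 5.81 in iDKO, 22.5 ± 5.63 in iTKO). The SMAD4 values were 5.08 and 7.25 FPKM in controls and 3.46 and 3.28 in iKO, a change of -0.77 ± 0.22 (adjusted p = 0.144). Abca7, a phospholipid transporter, had control means between 9.6 and 12.3 FPKM and was not called.

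Inside the cell, the mitochondrial transporter Abcb10, needed for haem synthesis, was the B member of this group with calls. At day 6 controls read 20.4, 22.4 and 20.5 FPKM and iDKO 12.5, 13.9 and 11.7. At day 30 controls read 21.3, 22.6, 17.6, 22.4 and 19.9 FPKM, iDKO 10.4 and 12.7, and iTKO 14.8, 14 and 14.9. No mutant library reached a control, and limma gave -0.71 ± 0.10 at day 6 (adjusted p = 0.00452), -0.82 ± 0.12 in iDKO at day 30 (0.000993) and -0.49 ± 0.10 in iTKO (0.00843). In SMAD4 libraries it read 24.0 and 26.6 FPKM in controls and 14.9 and 12.8 in iKO, a change of -0.85 ± 0.15 with an adjusted p of 0.0578. The TBX3 groups overlapped, with 21.9 ± 1.43 FPKM in controls and 22.8 ± 1.43 in iKO (0.06, 95% interval -0.18 to 0.30). The antisense model Gm45890 covers 10.3% of its exon bases.

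Abcb8 and Abcb9 were not called in any comparison. Abcb8, of the mitochondrial inner membrane, had means of 51.0 ± 4.41 FPKM in day 30 controls, 56.2 ± 1.87 in iDKO and 52.7 ± 2.80 in iTKO. Abcb9, a lysosomal peptide transporter, had 16.9 ± 2.85, 15.8 ± 7.80 and 21.7 ± 1.44 FPKM, and its 2 iDKO libraries lay far apart. The log2 changes of Abcb8 and Abcb9 against controls ranged from -0.17 (Abcb9, TBX3 iKO) to 0.37 (Abcb9, iTKO).

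Abcd3, which imports branched and dicarboxylic acyl-CoA into peroxisomes, was called in no comparison. Abcd3 means were 71.7 ± 7.05 FPKM in day 6 controls and 68.9 ± 6.39 in iDKO, and 200.5 ± 15.4 in day 30 controls against 187 ± 28.0 in iDKO and 210 ± 33.0 in iTKO. Its log2 changes in the 6 comparisons lay between -0.14 and 0.16. Abcd4, which exports cobalamin from lysosomes, was lower in iTKO. Day 30 controls read 17.1, 17.2, 21.8, 17.1 and 20.1 FPKM and iTKO 16.2, 12.1 and 13.1, a change of -0.42 ± 0.12 (limma adjusted p = 0.0357). The highest iTKO library was close to the lowest controls, and the call was lost without control 3, control 5, iTKO 2 or iTKO 3 (adjusted p between 0.0697 and 0.136). In iDKO at day 30 the change was -0.39 (adjusted p = 0.078).

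The ABC proteins without a membrane domain had 2 of 4 members higher at day 6, where 15.5% of all genes were higher. Abcf2, of the translation-linked F subfamily, read 13.9, 9.11 and 11.5 FPKM in controls and 16.9, 17.2 and 18.0 in iDKO (0.60 ± 0.15, limma adjusted p = 0.032). Abcf1, which takes part in translation initiation, read 29.1, 30.7 and 28.8 FPKM in controls and 35.9, 38.7 and 35.3 in iDKO (0.31 ± 0.08, adjusted p = 0.0391). Centred on the library medians these changes were 0.43 (adjusted p = 0.0532) and 0.14 (0.413). The call of Abcf2 was lost in 6 of 16 settings, among them without control 3 or any of the 3 iDKO libraries. That of Abcf1 was lost in 9 of 16, among them without control 1, control 3 or any iDKO library (adjusted p from 0.0765 to 0.114 over these libraries and both genes). Abce1, the ribosome recycling factor, had 15.3 ± 1.97 FPKM in iDKO against 8.86 ± 3.64 in controls (0.83 ± 0.30, adjusted p = 0.0826). With replicate numbers as a block Abce1 passed as well, giving 5 higher and 5 lower members. Abcf3, another F member, had log2 differences between -0.01 and 0.08 in the 6 comparisons. In the later and the other tables none of the 4 was called, with Abce1 at 34.9 ± 5.36, 43.7 ± 5.94 and 41.3 ± 5.78 FPKM in day 30 controls, iDKO and iTKO. The only tested channel regulator, the sulphonylurea receptor gene Abcc8, was at 1.23 ± 0.19 FPKM in day 30 controls and 0.789 ± 0.157 in iDKO, without a call.

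Related genes outside the symbol rule were counted from fixed lists. Cftr, an ABC protein that is a chloride channel, was higher in iDKO at day 6 (44.1 ± 7.06 against 24.7 ± 6.21 FPKM, limma adjusted p = 0.0323), in iDKO at day 30 (79.2 ± 7.17 against 47.2 ± 3.44, 0.00298) and in iTKO (87.0 ± 16, 0.000674). The peptide transporters Tap1 and Tap2 were called nowhere.

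Carriers of drugs, bile acids, nucleosides and organic ions were counted beside the exporters. In iDKO at day 6, 2 were higher and 7 lower of 16 tested, beside 15.5% and 8.26% of all genes. At day 30, 1 was higher and 7 lower of 19 in iDKO (all genes 9.43% and 9.31%), and likewise 1 and 7 of 19 in iTKO (9.13% and 8.95%). In SMAD4 iKO the counts were 0 and 5 of 19 (1.28% and 2.14%), and in TBX3 iKO 2 and 1 of 14 (1.34% and 2.08%). Slc28a1, a nucleoside carrier, went from 112 ± 30.1 to 6.76 ± 4.61 FPKM at day 6 (limma adjusted p = 0.00279). Slc47a1, an exporter of organic cations, went from 26.2 ± 3.44 to 4.91 ± 1.33 FPKM (0.00093). Slc51a, part of the basolateral bile acid exporter, went from 164 ± 14.5 to 72.9 ± 2.86 FPKM at day 6 (0.000886). In TBX3 iKO Slc51a was higher (295 ± 12.2 against 182 ± 11.7 FPKM, 0.0164), and so was its partner Slc51b (255 ± 27.7 against 121 ± 14.1, 0.0119).

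Among 21 transcription factors that sense drugs, bile acids and lipids, 3 were higher and 5 lower at day 6, 2 and 3 in iDKO at day 30, 2 and 2 in iTKO, 1 and 1 in SMAD4 iKO, and 1 and 1 of 20 in TBX3 iKO. Set beside the shares of all genes called either way (23.8%, 18.7%, 18.1%, 3.42% and 3.42%), the counts of iDKO and iTKO at day 30 were near the background. Nr0b2, a repressor in bile acid control, was higher in iDKO at day 6 (20.9 ± 5.43 against 5.69 ± 1.15 FPKM, limma adjusted p = 0.00314) and at day 30 (11.7 ± 1.67 against 3.25 ± 0.92, 0.00193). Vdr, the vitamin D receptor, was lower in iDKO at day 30 (199.7 ± 52.4 against 417 ± 35.3 FPKM, 0.000948). Pparg was lower in iTKO than in iDKO (3.23 ± 0.92 against 16.7 ± 5.56 FPKM, 0.00726). In TBX3 iKO Nr1h4, the bile acid receptor FXR, was higher (58.1 ± 9.86 against 14 ± 1.63 FPKM, 0.00311). Of 3 tested apical scaffold genes, all 3 were lower at day 6, beside 8.26% of all genes. Pdzk1, which binds apical transporters, led them (14.4 ± 1.60 against 56.9 ± 9.77 FPKM, limma adjusted p = 0.000608). In iDKO at day 30, iTKO and SMAD4 iKO 2 of 3 were lower each (all genes 9.31%, 8.95% and 2.14%). In TBX3 iKO 0 of 3 were called.

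Markers of other cell types moved with some of these comparisons. The 5 markers of T cells and intraepithelial lymphocytes summed to 147 to 234 FPKM in day 30 controls, 64.2 to 99.6 in iDKO and 54.2 to 75.8 in iTKO, and all 5 were called lower in both mutants. SMAD4 libraries had sums of 95.5 to 123 FPKM in controls and 29.9 to 49.6 in iKO. The 4 Paneth cell markers summed to 13351 to 19331 FPKM in day 30 controls, 5607 to 5961 in iDKO and 3491 to 7328 in iTKO, and all 4 were called lower. The 3 goblet cell markers in that table summed to 5974 to 8389, 3334 to 4275 and 3460 to 4213 FPKM. Endothelial markers summed to at most 1.26 FPKM there, with Cdh5 at 0 in every iDKO and iTKO library. The part of these cell types in the changes of the ABC genes was not tested. At day 6 no T cell, Paneth, goblet or crypt marker was called, while 1 enteroendocrine and 1 tuft cell marker were lower. Of 7 enterocyte markers, 2 were higher and 1 lower at day 6. At day 30 the counts were 3 and 1 in iDKO and 2 and 3 in iTKO. The shares of all genes called either way were 23.8%, 18.7% and 18.1%. In SMAD4 iKO 1 enterocyte marker was higher and 1 lower, and in TBX3 iKO 0 were called. Enteroendocrine markers were lower in 2 of 4 (iDKO) and 4 of 4 (iTKO) at day 30. Without both number 2 libraries, 5 of the 9 calls of day 6 were kept, among them Abcc2, Abcb10 and Abcg2 (limma adjusted p between 0.0179 and 0.0402), and those of Abca3, Abca2, Abcf2 and Abcf1 were lost (between 0.064 and 0.142).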

How the data were processed

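Polyadenylated RNA of whole epithelium was sequenced as paired-end reads, per the labels' protocols. The submitters' processing notes list HISAT2 2.2.1, Subread and featureCounts 2.0.1, and both GRCm39 and mm10, with no build tied to a table. The authors deposited FPKM values in 4 separately normalised tables, and strand settings are not given in the sources used here.

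Rows that repeated an earlier gene symbol (34 in the day 6 SMAD1/5 table, 9 in the TBX3 table) were dropped and the first row was kept. The filter on low values asked for FPKM 1 or more in a number of libraries equal to the table's smallest group, which left 10827, 11939, 12202 and 9794 genes in the day 6 SMAD1/5, day 30 SMAD, SMAD4 and TBX3 tables. Of the members listed there, 22 of 37, 26 of 36, 24 of 35 and 21 of 42 were tested. Differences of log2(FPKM + 0.5) were fitted on each whole table with limma 3.58.1 (R 4.3.3, mean-variance trend, two-sided), with Benjamini-Hochberg adjustment over all genes tested and 0.05 as threshold. For day 30 SMAD libraries 1 model held all 10, its 5 controls forming 1 group. Intervals are 95%.

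Members and lists were chosen with earlier results of these data known. Each library's value is given for Abcb1a and for up to 8 called members of smallest adjusted p in a comparison, and group means for members with a control mean of at least 20 FPKM in any table. Values per library of Abcc3, Abcc6, Abcf1 and of members called in another table were added after they were seen. Values of 2 members are not reported here, although both stay in all counts and medians. Related lists are described by counts and up to 3 genes.

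Equal replicate numbers were checked as pairs by residual correlation. At day 6 the values were 0.143, 0.583 and 0.221, all above 0.1, the bar used here for pairs, but control 1 with iDKO 3 (0.366) and control 3 with iDKO 1 (0.253) correlated more than 2 of these. The results given come from fits without the block, and the blocked count stands beside the day 6 values where it changed a call. They were 0.283 in the SMAD4 table, -0.151, -0.312 and -0.010 in the TBX3 table, and of mixed sign at day 30.

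Depth was estimated from FPKM steps with exon lengths of GENCODE vM21, and no counting interval is given because counts were not among the data used here. Promoters for 31 of 43 members came from RefSeq tables. Procedures were tested on simulated data. Sequence searches ran in Python 3.11.15 (pandas 2.3.3, numpy 2.4.6) and figures in matplotlib 3.10.9. Alternatives were other pseudocounts (0.1 and 1), no filter and a filter at 5 FPKM, median centring, quantile normalization, no trend, a robust prior, the replicate block, own-line controls, a fit on just the groups compared, and leaving out each library.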

Additional observations from a re-analysis of the deposited data

Results flagged for a closer look

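In the day 30 SMAD table, 26 combinations of ABC gene and control group of 5 libraries were screened for a library far from the rest, and 2 were found, where chance alone gives about 1 in 20. Abcc2 read 369 FPKM in control 3, against 269 to 291 in the other 4 controls. Abca7 read 8.17 FPKM in control 4, below the other 4. Both controls come from the SMAD1/4/5 line and received oil.

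Abcb1b differed between the genotypes of the day 30 table. The direct contrast of iTKO minus iDKO was -2.25 on the log2 scale (limma adjusted p = 0.0154). That call was lost in 5 of 14 alternative settings. Abcb1b passed the filter on low values only through mutant libraries, so its call is given as a description. Abcc3 moved in opposite directions in iDKO at the separate times, with a log2 change of -0.19 at day 6, where all 3 iDKO libraries were below all 3 controls, and 0.58 at day 30, where both were above all 5. Neither change was called, and the difference between times was not tested, since the tables were normalised separately.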

How the results depend on the processing

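The calls of Abcb10, Abcg2 and Abcc2 at day 6, of Abcb10 in iDKO at day 30, and of Abcc5 in iTKO held in every alternative run. Over all log2 changes followed, 418 alternatives kept direction and side of the threshold, 82 lost the call and 2 reversed, both for Abcb1a in iTKO, at 0.0446 without control 3 and 0.0706 without iTKO 3, where leaving out 1 library gave -0.2529 to 0.0706. Day 6 iDKO had 1 member higher after median centring, 2 after quantile normalization and 1 without both number 2 libraries. Day 30 iDKO had 1 lower with own-line controls. With a filter at 5 FPKM iTKO had 1 higher, and iTKO against iDKO had 0 lower there, with a pseudocount of 0.1 and on the compared groups alone. SMAD4 iKO had 1 lower with that filter, median centring or a robust prior. TBX3 iKO had 1 higher with that filter, median centring, quantile normalization or a robust prior, and 0 lower without a filter and 1 lower with median centring, quantile normalization or no trend. The replicate block gave 1 higher and 1 lower in day 30 iDKO, 0 higher and 1 lower in iTKO, 0 lower for iTKO against iDKO, 2 lower in SMAD4 iKO and 0 lower in TBX3 iKO. The cause of these changes was not tested. Leaving out 1 library gave 1 to 4 higher and 4 to 5 lower at day 6, 1 to 3 and 1 to 5 in day 30 iDKO, 1 to 2 and 2 to 5 in iTKO, 0 to 2 and 0 to 1 for iTKO against iDKO, 0 and 0 in SMAD4 iKO, and 0 and 0 to 1 in TBX3 iKO. A lone library left in a group was assumed to vary like the others.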
